A study of Danio rerio with 16 samples.

Results

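The thyroid hormone axis was followed through 8 genes of whole zebrafish larvae, chosen by name: 2 thyroid hormone receptors (*thraa*, listed as THRA with the identifier ENSDARG00000000151, and *thrb*, ENSDARG00000021163), 3 deiodinases (*dio1*, ENSDARG00000042112, *dio2*, ENSDARG00000094857, and *dio3b*, ENSDARG00000095767), and *tg* (ENSDARG00000020084), *tshba* (ENSDARG00000033726) and *slc5a5* (ENSDARG00000005392). All 8 were found among the 22994 genes of the data, and 6 of them averaged 5 or more normalized counts across the 16 samples, as did 21490 genes in all. Only these 6 were tested. *tshba* and *slc5a5* lay below that limit and are given by their values.

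Thyroid hormone is made in the thyroid follicle from iodinated thyroglobulin, under the control of thyrotropin from the pituitary, and is released mainly as the prohormone thyroxine. Deiodinases in target tissues then turn thyroxine into the active hormone or inactivate it, and nuclear receptors that bind the hormone regulate their target genes. Glucocorticoids act on several steps of this axis in vertebrates, and *klf9*, which encodes a Krüppel-like transcription factor, is a target gene of both hormones. The question asked of these data was whether the RNA of the axis differed with the loss of *klf9* or with cortisol.

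RNA was measured by sequencing in 16 samples of 10 larvae each at 5 days after fertilization. The 4 groups, of 4 samples each, were *klf9*-/- larvae in 1 µM cortisol, *klf9*-/- larvae in vehicle (DMSO), wild-type (WT) larvae in 1 µM cortisol and WT larvae in vehicle. Treatment began at about 4 h after fertilization, and all groups shared the AB strain, the cycle of 14 h light and 10 h dark and the collection 3 h after lights-on. The mutants were homozygous for a frameshifting deletion of 2 bp in exon 1 of *klf9*, which came from 1 founder female, and their parents were siblings of the WT parents.

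The 4 samples of a group were taken from 1 dish, so that dish and group cannot be told apart and p-values measure the spread between samples of a dish. Replicates 3 and 4 of each group went through RNA preparation on day 2 and replicates 1 and 2 on day 1, with a different order of lysis and homogenization. By the study's account this split also follows the order in which samples were collected, so that preparation and collection order cannot be told apart, and "day" in the following covers both. The values are counts that the authors normalized to the same distribution in every sample, so the depth is unknown, and errors come from the spread between samples. In whole larvae, fewer cells of a type and less RNA per cell cannot be told apart. A gene was called at an adjusted p under 0.05 (limma over all 16 samples with preparation day as a covariate, Benjamini-Hochberg over 21490 genes). Levels are normalized counts, differences are log2 values with their standard error, and no level is compared between genes because lengths were not used. The 4 comparisons of single groups share samples with each other and with the averaged comparisons.

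The targeted gene was measured first. *klf9* had 106, 134, 136 and 111 normalized counts in *klf9*-/- larvae in cortisol and 135, 78, 100 and 111 in *klf9*-/- larvae in vehicle, against 330, 511, 354 and 340 in WT larvae in cortisol and 274, 250, 243 and 165 in WT larvae in vehicle. Every *klf9*-/- sample lay below every WT sample. The log2 difference of *klf9*-/- from WT larvae was -1.64 ± 0.18 with cortisol (SE, limma adjusted p = 0.00014) and -1.14 ± 0.18 with vehicle (adjusted p = 0.0097). With cortisol, *klf9* was 0.72 ± 0.18 higher than with vehicle in WT larvae (adjusted p = 0.030), a call that was lost without replicate 1 or 2 of WT larvae in cortisol or 1, 2 or 4 of WT larvae in vehicle (adjusted p up to 0.11). Over the series, 63.1% of the tested genes were called between preparation days, against 33.1% for cortisol averaged over genotypes and 4.67% for genotype averaged over treatments.

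The loss of *klf9* gave no call among the tested members. Of 33 further listed genes of the axis, described below, 3 were called higher in *klf9*-/- larvae averaged over treatments, where 4.67% of all tested genes were called. With vehicle alone and with cortisol alone, 0 of these 33 were called between genotypes. Of the 6 tested members, 0 were called between *klf9*-/- and WT larvae with vehicle, where 0.586% of all tested genes were called, 0 with cortisol, where 2.07% were, and 0 over both treatments. At an unadjusted p under 0.05 the number was also 0 of 6 in each of these limma comparisons. Of all 21490 tested genes, 2755 passed that threshold with vehicle, 2718 with cortisol and 3988 averaged over treatments. The median difference of the 6 members averaged over treatments was 0.03, beside 0.01 for all tested genes. At the shares of all genes in these comparisons, a count of 0 among 6 genes does not set the members apart from the other genes.

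Cortisol was called for 2 of the 6 members, both higher, when the genotypes were averaged. These were *dio1*, which encodes the deiodinase that can activate or inactivate thyroid hormone and is typical of liver and kidney, and *tg*, which encodes thyroglobulin. That count lies near the background, since 33.1% of all tested genes were called in the same comparison. Within WT larvae alone 0 of 6 members were called, against 8.66% of all genes, and within *klf9*-/- larvae alone 0 of 6, against 4.85%. The counts at an unadjusted p under 0.05 were 2 of 6 in WT and 3 of 6 in *klf9*-/- larvae. Of all 21490 tested genes, 7084 in WT and 6030 in *klf9*-/- larvae passed that threshold. The WT count of adjusted calls was 1 instead of 0 when a single sample was left out, either replicate 2 (*dio1*) or 3 (*tg*) of the *klf9*-/- larvae in cortisol or replicate 4 (*dio1*) of the WT larvae in cortisol. For the cortisol effect in *klf9*-/- minus that in WT larvae, 0 of 6 were called by limma and 0 had an unadjusted p under 0.05. Of all 21490 tested genes, 0.168% were called and 1231 had an unadjusted p under 0.05.

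**Figure D1:**
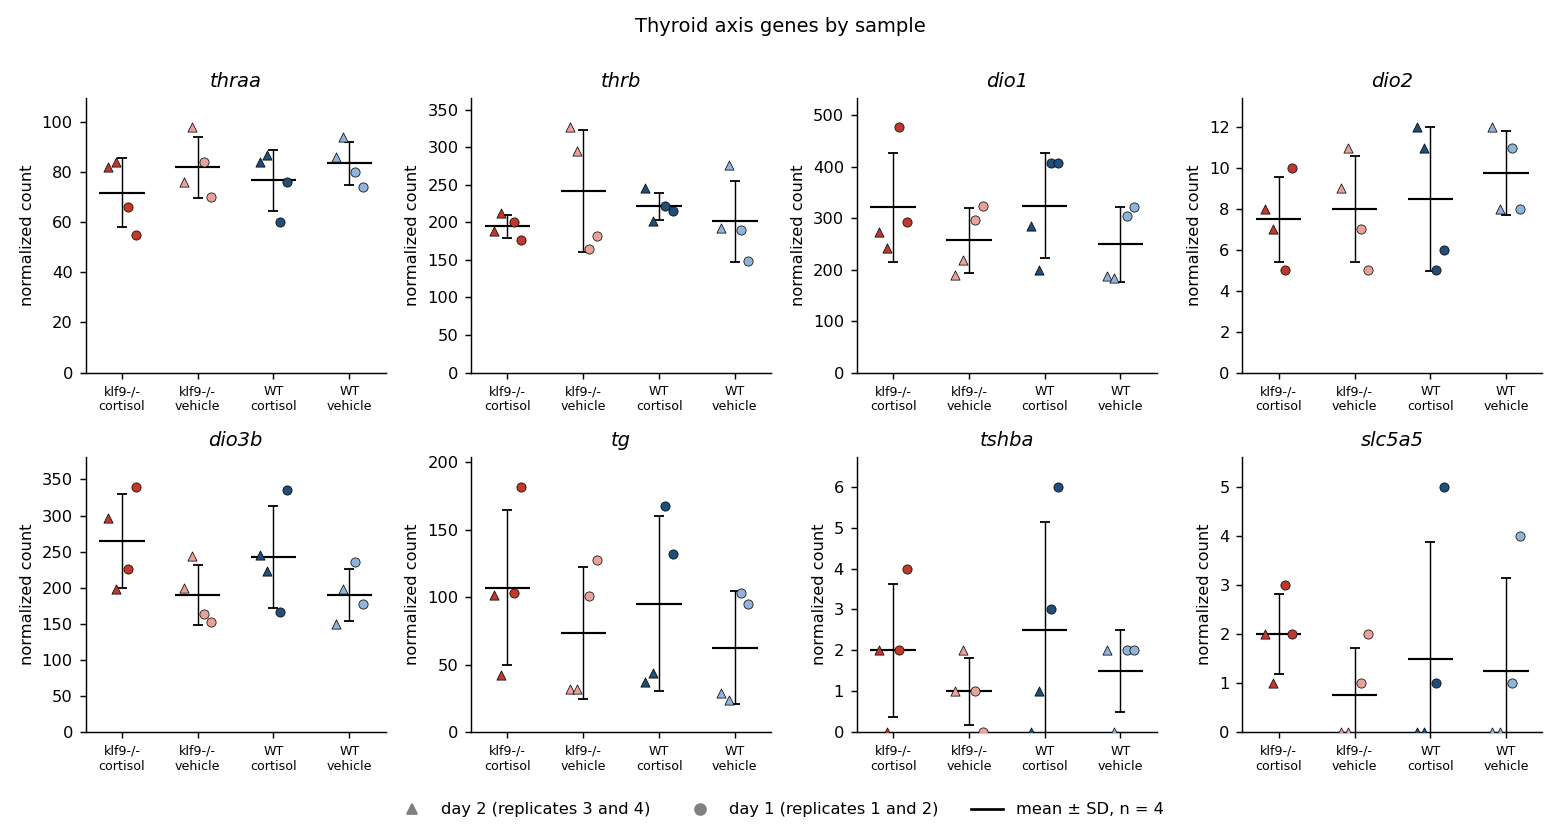
Normalized counts of the 8 genes in each sample (vertical axis of each panel, starting at 0), for *klf9*-/- larvae in cortisol, *klf9*-/- larvae in vehicle, WT larvae in cortisol and WT larvae in vehicle. Triangles are samples of day 2, circles samples of day 1, and bars the mean ± SD of 4 samples. The groups overlap in every panel, the circles of *dio1* all lie above its triangles, and those of *tg* do so apart from 1 triangle at 102.

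*thraa*, which encodes an alpha receptor of thyroid hormone, had 66, 55, 82 and 84 normalized counts in *klf9*-/- larvae in cortisol and 84, 70, 76 and 98 in *klf9*-/- larvae in vehicle. In WT larvae it had 60, 76, 84 and 87 with cortisol and 80, 74, 86 and 94 with vehicle. The groups overlapped throughout, and the 3 lowest values (55, 60 and 66) were all cortisol samples of day 1. The cortisol difference was -0.17 ± 0.08 averaged over genotypes (limma adjusted p = 0.12), with a 95% interval of -0.34 to 0.01. An exact permutation test within day and genotype gave p = 0.063, where 0.00154 is the smallest p that it allows. For *klf9*-/- against WT larvae the difference was -0.07, with an interval of -0.24 to 0.10. The other alpha receptor gene, *thrab* (ENSDARG00000052654), is not a member and was not called for cortisol or genotype. Its means with cortisol and vehicle were 125.75 and 122.25 in *klf9*-/- larvae and 120.75 and 124.75 in WT larvae.

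*thrb* encodes the beta receptor, which in zebrafish is needed for red cones. It had 201, 177, 189 and 212 normalized counts in *klf9*-/- larvae in cortisol and 164, 182, 327 and 295 in *klf9*-/- larvae in vehicle. In WT larvae it had 222, 215, 246 and 202 with cortisol and 190, 148, 192 and 276 with vehicle. The cortisol samples lay in a narrow band, with an SD of 15.1 in *klf9*-/- and 18.5 in WT larvae. The vehicle samples spread more widely, with an SD of 81.1 in *klf9*-/- and 53.7 in WT larvae. Part of that spread lay between days, with vehicle means of 311 on day 2 and 173 on day 1 in *klf9*-/- larvae. In WT larvae in vehicle the means were 234 and 169. Within *klf9*-/- larvae the SD on day 2 and day 1 (n = 2 each) was 22.6 and 12.7 with vehicle and 16.3 and 17.0 with cortisol. Within WT larvae it was 59.4 and 29.7 with vehicle and 31.1 and 4.95 with cortisol.

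The cortisol difference of *thrb* was -0.25 ± 0.16 in *klf9*-/- larvae and 0.17 ± 0.16 in WT larvae. The difference between these was -0.42 ± 0.23, with an interval of -0.91 to 0.07 and an adjusted p of 0.91 (limma), so that the opposite signs were not separated from the spread. The sign of the cortisol difference also changed between days. Averaged over genotypes, cortisol samples of *thrb* lay 0.34 below vehicle samples on the log2 scale on day 2 (difference -0.34, limma adjusted p = 0.13 on that day alone) and 0.25 above them on day 1 (adjusted p = 0.080). The term for day and cortisol together held 24.9% of the sum of squares of *thrb*, that for genotype and cortisol together 12.5%, cortisol alone 0.521% and genotype alone 0.205%. Averaged over treatments, the *klf9*-/- difference was 0.03, with an interval of -0.22 to 0.27.

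The ratio of *thrb* to *thraa* counts, chosen after their values were seen, ranged from 2.30 to 3.21 in *klf9*-/- larvae in cortisol and from 1.95 to 4.30 in *klf9*-/- larvae in vehicle. It ranged from 2.32 to 3.70 in WT larvae in cortisol and from 2.00 to 2.93 in WT larvae in vehicle. The log2 ratio differed by 0.12 with cortisol averaged over genotypes (exact permutation p = 0.48) and by 0.09 between *klf9*-/- and WT larvae (exact permutation p = 0.49).

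Of the deiodinases, *dio1* had 477, 292, 273 and 243 normalized counts in *klf9*-/- larvae in cortisol and 296, 324, 190 and 218 in *klf9*-/- larvae in vehicle. In WT larvae it had 408, 407, 284 and 199 with cortisol and 304, 321, 188 and 184 with vehicle. Within a preparation day, both WT cortisol samples lay above both WT vehicle samples on day 2 and on day 1, and the *klf9*-/- groups were apart in the same direction on day 2 and overlapped on day 1. Over all days the groups overlapped.

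*dio1* was 0.34 ± 0.09 higher with cortisol averaged over genotypes (1.26-fold, limma adjusted p = 0.016), with an interval of 0.13 to 0.54. The exact permutation test within day and genotype gave p = 0.0077. The difference was 0.30 ± 0.13 in *klf9*-/- larvae (adjusted p = 0.15) and 0.37 ± 0.13 in WT larvae (adjusted p = 0.081), and the difference between the genotypes was -0.06, with an interval of -0.47 to 0.34. The *klf9*-/- value was 0.20 without replicate 1 of *klf9*-/- larvae in cortisol and 0.46 without replicate 2 of that group. The call was lost without preparation day in the model, and on each day alone, where the difference was 0.35 on day 2 (adjusted p = 0.10) and 0.33 on day 1 (adjusted p = 0.090). Between *klf9*-/- and WT larvae the difference was 0.03, with an interval of -0.18 to 0.23.

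*dio2* encodes the activating deiodinase and was close to the limit of the test, with 5 to 12 normalized counts in the 16 samples. The means were 7.50 ± 2.08 in *klf9*-/- larvae in cortisol, 8.00 ± 2.58 in *klf9*-/- larvae in vehicle, 8.50 ± 3.51 in WT larvae in cortisol and 9.75 ± 2.06 in WT larvae in vehicle (SD, n = 4 each). The groups overlapped, and the intervals were wide. The cortisol difference averaged over genotypes was -0.17, with an interval of -0.62 to 0.27, and the *klf9*-/- difference averaged over treatments was -0.22, with an interval of -0.67 to 0.22.

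*dio3b* encodes an inactivating deiodinase. It had 226, 340, 296 and 198 normalized counts in *klf9*-/- larvae in cortisol and 163, 152, 200 and 244 in *klf9*-/- larvae in vehicle. In WT larvae it had 167, 336, 245 and 223 with cortisol and 235, 178, 150 and 198 with vehicle. The 3 highest of the 16 values were cortisol samples. The cortisol samples at 226 and 198 in *klf9*-/- larvae and at 167 and 223 in WT larvae lay inside the vehicle range of their genotype.

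The cortisol difference of *dio3b* averaged over genotypes was 0.40 ± 0.16, or 1.32-fold, with an interval of 0.07 to 0.73. It was not called (limma adjusted p = 0.059), and the exact permutation p was 0.048 before any adjustment over members. The difference was 0.47 ± 0.22 in *klf9*-/- larvae (adjusted p = 0.17) and 0.33 ± 0.22 in WT larvae (adjusted p = 0.31). The WT value was 0.14 without replicate 2 of WT larvae in cortisol, 0.50 without replicate 1 of that group and 0.21 without replicate 3 of WT larvae in vehicle, and the *klf9*-/- value was 0.13 on day 2 and 0.82 on day 1. The averaged difference was called in 6 of 28 alternative settings, which were array weights, a separate mean for each group and day, and 4 that left out 1 sample: replicate 4 of *klf9*-/- larvae in cortisol, replicate 4 of *klf9*-/- larvae in vehicle, replicate 1 of WT larvae in cortisol or replicate 1 of WT larvae in vehicle, with adjusted p between 0.031 and 0.044. The difference of *dio3b* between days was the smallest of the 6 members, 0.01 with an interval of -0.32 to 0.34. For *klf9*-/- against WT larvae the difference was 0.06, with an interval of -0.27 to 0.40.

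The ratio of *dio3b* to *dio1* counts, also chosen after the values were seen, sets the inactivating enzyme against the one that also activates. The log2 ratio averaged -0.26 ± 0.59 in *klf9*-/- larvae in cortisol, -0.43 ± 0.64 in *klf9*-/- larvae in vehicle, -0.40 ± 0.62 in WT larvae in cortisol and -0.36 ± 0.39 in WT larvae in vehicle (SD, n = 4 each). The cortisol difference averaged over genotypes was 0.06 (exact permutation p = 0.79, within day and genotype). The SDs also hold the difference between days, so they are not the spread used in that test.

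*tg*, the precursor protein on which thyroid hormone is made, varied most of the 6 tested members, with an SD of 0.99 on the log2 scale over the 16 samples, against 0.22 to 0.45 for the other 5. It had 103, 182, 102 and 42 normalized counts in *klf9*-/- larvae in cortisol and 101, 128, 32 and 32 in *klf9*-/- larvae in vehicle. In WT larvae it had 168, 132, 37 and 44 with cortisol and 103, 95, 29 and 24 with vehicle. Within days the WT cortisol samples lay above the WT vehicle samples on day 2 and on day 1, and the *klf9*-/- samples did so on day 2 alone.

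*tg* was 0.62 ± 0.18 higher with cortisol averaged over genotypes (1.54-fold, limma adjusted p = 0.018), with an interval of 0.24 to 1.01 and an exact permutation p of 0.0031. The difference was 0.65 ± 0.25 in *klf9*-/- larvae (adjusted p = 0.11) and 0.60 ± 0.25 in WT larvae (adjusted p = 0.12), and that between the genotypes was 0.05, with an interval of -0.71 to 0.81. The *klf9*-/- value was 0.31 without replicate 3 of *klf9*-/- larvae in cortisol and 0.91 without replicate 1 of that group, and it was 1.03 on day 2 and 0.27 on day 1. As for *dio1*, the call was lost without preparation day in the model and on each day alone, where the difference was 0.82 on day 2 (adjusted p = 0.083) and 0.43 on day 1 (adjusted p = 0.088). Between *klf9*-/- and WT larvae the difference of *tg* was 0.26 ± 0.18 (adjusted p = 0.48), with an interval of -0.12 to 0.65, the widest range upward of the 6 members.

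*slc5a5*, the iodide transporter of the thyroid follicle, was at the edge of detection. It had 3, 2, 2 and 1 normalized counts in *klf9*-/- larvae in cortisol, 1, 2, 0 and 0 in *klf9*-/- larvae in vehicle, 1, 5, 0 and 0 in WT larvae in cortisol and 1, 4, 0 and 0 in WT larvae in vehicle. All 4 samples of *klf9*-/- larvae in cortisol had at least 1 count, whereas both day 2 samples of each other group were at 0.

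*tshba*, which encodes the beta subunit of thyrotropin, was also at the edge of detection. It had 2, 4, 2 and 0 normalized counts in *klf9*-/- larvae in cortisol, 1, 0, 1 and 2 in *klf9*-/- larvae in vehicle, 3, 6, 0 and 1 in WT larvae in cortisol and 2, 2, 2 and 0 in WT larvae in vehicle. No fold is given for either gene, and a difference was not detectable at these counts.

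**Figure D2:**
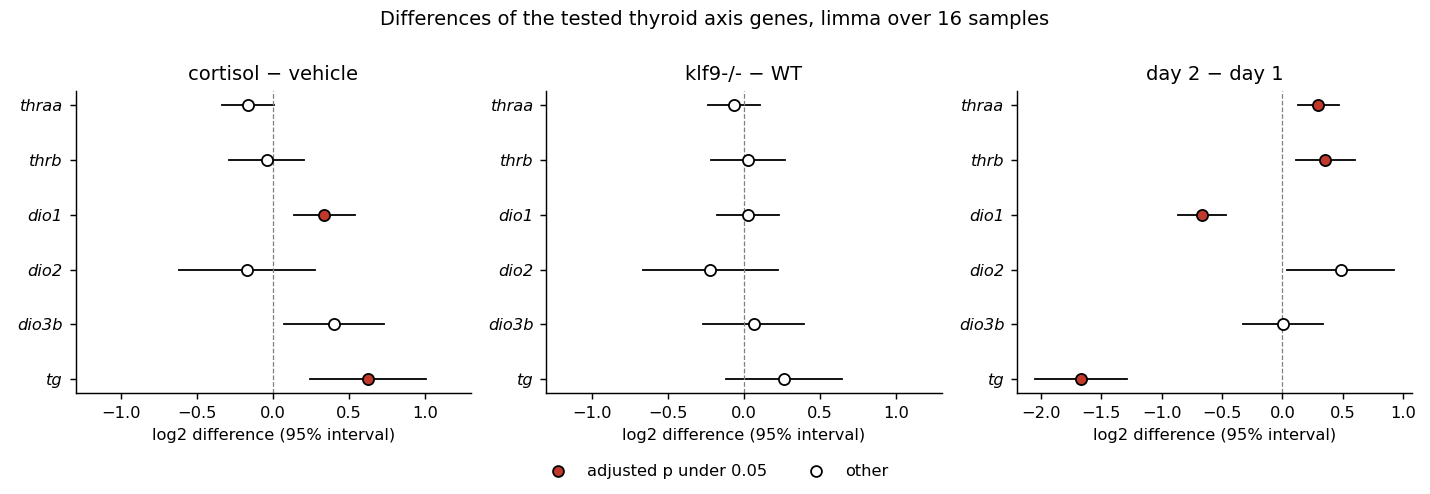
Log2 differences (horizontal axis) of the 6 tested members with their 95% intervals, for cortisol minus vehicle averaged over genotypes, *klf9*-/- minus WT averaged over treatments, and day 2 minus day 1. Filled points have an adjusted p under 0.05 in limma. *dio1* and *tg* are filled for cortisol, none is filled for genotype, and *thraa*, *thrb*, *dio1* and *tg* are filled for day.

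More members were called between days than for either factor of the design. Of the 6 tested members 4 were called between day 2 and day 1, against a background of 63.1%, so that the share was close to that of all genes. *tg* ranged from 24 to 102 normalized counts on day 2 and from 95 to 182 on day 1, the ranges meeting through 1 *klf9*-/- cortisol sample, a difference of -1.67 ± 0.18 (limma adjusted p = 3.7e-06). *dio1* ranged from 184 to 284 on day 2 and from 292 to 477 on day 1, with no overlap, a difference of -0.67 ± 0.09 (adjusted p = 2.7e-05). Both receptors among the members differed the other way, *thraa* by 0.30 ± 0.08 (adjusted p = 0.0044) and *thrb* by 0.35 ± 0.12 (adjusted p = 0.014). *dio2* differed by 0.48 ± 0.21 and was not called (adjusted p = 0.055), although it was when replicate 2 or 4 of *klf9*-/- larvae in cortisol or replicate 1 or 4 of WT larvae in vehicle was left out.

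The share of the sum of squares was larger for day than for cortisol or genotype in every tested member except *dio3b*. Day held 75.2% of that of *tg*, 65.7% of *dio1*, 47.5% of *thraa*, 35.5% of *thrb*, 31.3% of *dio2* and 0.0089% of *dio3b*. Cortisol held 30.7% for *dio3b*, 16.8% for *dio1*, 14.7% for *thraa* and 10.5% for *tg*. Genotype held at most 6.50%, for *dio2*, whereas it held 78.3% for *klf9* itself.

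**Figure D3:**
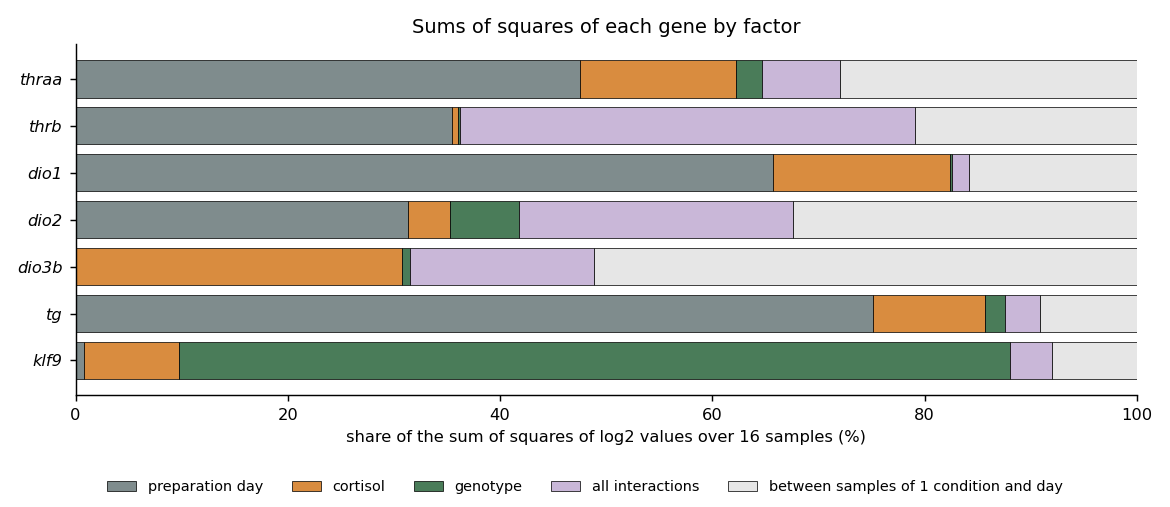
Share of the sum of squares of log2 values over 16 samples (horizontal axis, in percent) for the 6 tested members and *klf9*. Segments are preparation day, cortisol, genotype, their interactions, and the spread between samples of the same group and day. Genotype fills 78.3% of the bar of *klf9* and at most 6.50% of the bars of the members.

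Markers of liver and of synapses also differed with cortisol and with day, in opposite directions. The backgrounds were 33.1% of all genes called for cortisol averaged over genotypes and 63.1% for day. Of 8 liver genes, 4 were higher and 0 lower with cortisol averaged over genotypes (median difference 0.29), and 0 were higher and 6 lower on day 2 (median -0.35). Of 14 genes of synapses, 0 were higher and 11 lower with cortisol (median -0.41), and all 14 were higher on day 2 (median 0.90). Of 9 ribosomal genes, 2 were higher and 0 lower with cortisol (median 0.05), and 0 were higher and 6 lower on day 2 (median -0.24). Of 6 muscle genes, 0 were called with cortisol, and 1 was lower on day 2. Their median difference was 0 in both comparisons, and *myhz1.1* and *actc1b* had the same mean of 187032. The normalization to the same distribution can fix the values of the most abundant genes, so these counts do not show whether muscle changed. The liver genes summed to 54531 to 58924 normalized counts in *klf9*-/- larvae in cortisol, 39573 to 61632 in *klf9*-/- larvae in vehicle, 50997 to 58645 in WT larvae in cortisol and 36867 to 60019 in WT larvae in vehicle. The synaptic genes summed to 16598 to 43396 in *klf9*-/- larvae in cortisol, 27441 to 51243 in *klf9*-/- larvae in vehicle, 13496 to 42837 in WT larvae in cortisol and 21682 to 48373 in WT larvae in vehicle. None of these genes was at 0 in any sample. *tg* and *dio1* differed in the direction of the called liver genes in both comparisons, and opposite to the called synaptic genes. The called ribosomal genes had the direction of *tg* and *dio1* too, but 2 of 9 with cortisol lay below the background of 33.1%. Counts of 4 of 8 liver genes with cortisol and 6 of 8 with day do not set that list apart from all genes. The part of these markers in the differences of *tg* and *dio1* was not tested.

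Of 3 tested pituitary markers, *pomca* was higher with cortisol averaged over genotypes (1.33 ± 0.26, limma adjusted p = 0.0035), *gh1* was lower in *klf9*-/- than in WT larvae averaged over treatments (-0.73 ± 0.19, adjusted p = 0.036), both named here after their values were seen, and all 3 were lower on day 2. The *klf9*-/- difference of *gh1* was -0.30 with vehicle and -1.17 with cortisol, and the change between these was not called. Between genotypes, 0 of the 3 markers were called with vehicle, and 1 was called lower with cortisol. The shares of all tested genes called were 33.1% for cortisol averaged over genotypes, 4.67% for genotype averaged over treatments and 63.1% for day. *prl* was at 0 in 1 sample, and *smtlb*, below the limit of the test, in 4. The sums of the pituitary list ranged over 49 to 240 in *klf9*-/- larvae in cortisol, 73 to 144 in *klf9*-/- larvae in vehicle, 133 to 405 in WT larvae in cortisol and 70 to 186 in WT larvae in vehicle, and their part in the differences of *tg* was not tested.

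The genes with the most similar profiles were sought among 15498 genes with a mean of at least 50, after the mean of each day was subtracted. The points share the 16 samples and their groups, so the correlations are descriptions. *tg* came closest to *PLA2G4A* (r = 0.94), *MYADM* (0.92) and *col6a4a* (0.92), and *thraa* was close to *GABBR1* (0.89) and *RANBP3* (0.89). *thrb* came closest to *YAF2* (0.88), *RBM33* (0.88) and *tapbpl* (0.87), *dio1* to *FUT11* (0.85), *KCNJ1* (0.85) and *mideasa* (0.84), and *dio3b* to *RAB43* (0.85), si:ch211-225h24.2 (0.84) and *PTDSS1* (0.79).

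The wider axis was described with 33 further tested genes, of *thrab*, receptors' partners, hormone metabolism, transport, the follicle, the pituitary and hypothalamus, and responsive genes. Cortisol averaged over genotypes called 4 of them higher and 3 lower, and *klf9*-/- against WT larvae averaged over treatments called 3 higher and 0 lower. The medians were -0.01 and 0.00, beside -0.02 and 0.01 for all tested genes. As shares, 7 of 33 lay below the background of 33.1% for cortisol, and 3 of 33 above that of 4.67% for genotype. The genotype comparison called 0 of 33 with vehicle alone and 0 of 33 with cortisol alone.

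**Figure D4:**
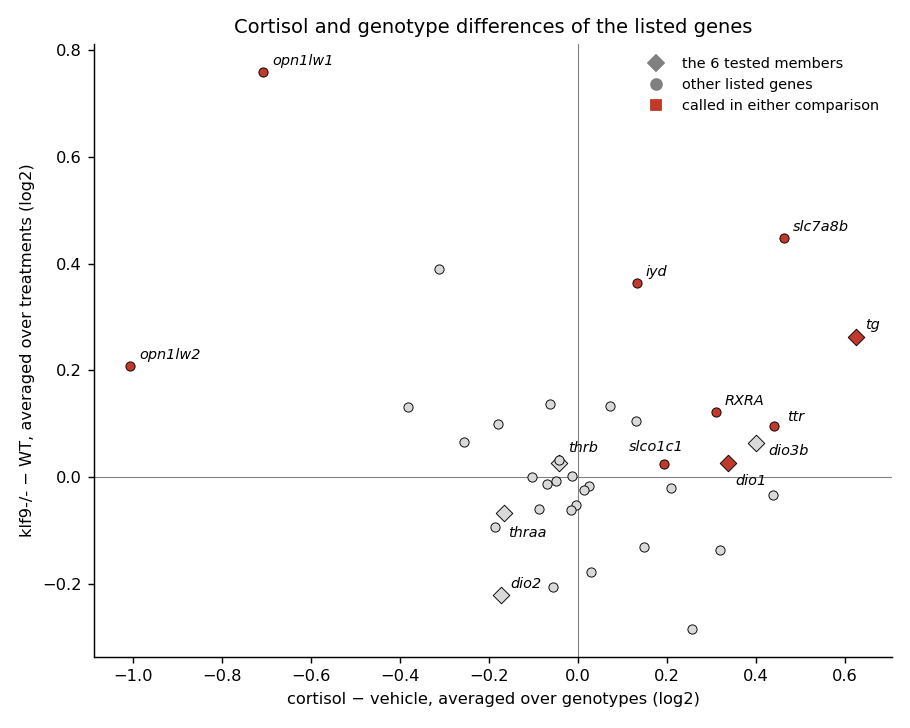
Log2 difference of cortisol from vehicle averaged over genotypes (horizontal axis) against that of *klf9*-/- from WT larvae averaged over treatments (vertical axis) for the 6 tested members (diamonds) and other listed genes (circles). Red marks an adjusted p under 0.05 in either comparison. On the vertical axis the members lie between -0.22 (*dio2*) and 0.26 (*tg*), while *opn1lw1*, *slc7a8b*, *iyd* and 1 *TRHR* gene (ENSDARG00000036159, 0.39, not called) lie above them.

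Among carriers of the hormone, *ttr*, which encodes the thyroid hormone binding protein transthyretin made in liver, was 0.44 ± 0.07 higher with cortisol averaged over genotypes (limma adjusted p = 0.0014). It had 854, 705, 484 and 498 normalized counts in *klf9*-/- larvae in cortisol and 678, 639, 394 and 355 in *klf9*-/- larvae in vehicle, and 912, 786, 496 and 443 in WT larvae in cortisol and 489, 639, 360 and 292 in WT larvae in vehicle. On each day the cortisol samples lay above the vehicle samples of their genotype. The difference was 0.31 ± 0.10 in *klf9*-/- larvae (adjusted p = 0.069) and 0.57 ± 0.10 in WT larvae (adjusted p = 0.0051). The call of the averaged difference was lost without preparation day in the model (adjusted p = 0.29). *ttr* also fell on day 2 relative to day 1, by 0.78 on the log2 scale, in the direction of the liver genes.

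*slc7a8b*, which encodes an amino acid transporter whose mammalian relative carries thyroid hormone, was higher in both averaged comparisons. It had 42, 38, 35 and 32 normalized counts in *klf9*-/- larvae in cortisol, 28, 28, 17 and 29 in *klf9*-/- larvae in vehicle, 32, 25, 24 and 21 in WT larvae in cortisol and 27, 22, 17 and 14 in WT larvae in vehicle. The *klf9*-/- cortisol samples were the highest, reaching the WT cortisol range only at 32. The difference was 0.46 ± 0.12 with cortisol (limma adjusted p = 0.011) and 0.45 ± 0.12 for *klf9*-/- against WT larvae (adjusted p = 0.043). The second call held in 9 of 27 alternative settings, and of those that left out 1 sample it held only without replicate 3 of *klf9*-/- larvae in vehicle or replicate 1 of WT larvae in vehicle.

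*slc16a10*, which encodes a transporter of aromatic amino acids and thyroid hormone, was 0.38 ± 0.09 higher with cortisol in *klf9*-/- larvae (limma adjusted p = 0.034) and -0.08 ± 0.09 different in WT larvae (adjusted p = 0.53). It had 628, 600, 572 and 460 normalized counts in *klf9*-/- larvae in cortisol against 523, 429, 359 and 429 in *klf9*-/- larvae in vehicle. In WT larvae it had 580, 568, 466 and 490 with cortisol and 624, 664, 478 and 477 with vehicle. The means were 565 and 435 in *klf9*-/- larvae in cortisol and vehicle, and 526 and 560.75 in WT larvae. The *klf9*-/- vehicle group was thus the lowest, although it was not called against WT larvae in vehicle. The difference between the genotypes in the cortisol effect was 0.46 ± 0.12 (adjusted p = 0.34), so that it was not called. The call in *klf9*-/- larvae was lost when any of 6 samples was left out, namely replicates 1, 2 and 3 of *klf9*-/- larvae in cortisol and of *klf9*-/- larvae in vehicle, with adjusted p up to 0.11. *slco1c1*, an organic anion transporter of thyroxine, passed at the threshold itself with cortisol averaged over genotypes (0.19 ± 0.07, adjusted p = 0.0500), and was called in 8 of 28 alternative settings. Of those that left out 1 sample, these were the ones without replicate 3 of *klf9*-/- larvae in cortisol, replicate 4 of *klf9*-/- larvae in vehicle, or replicate 2 or 3 of WT larvae in vehicle.

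Of the receptors' partners, one of 2 genes named *RXRA* (ENSDARG00000035127), a dimer partner of the receptors, was 0.31 ± 0.11 higher with cortisol averaged over genotypes (adjusted p = 0.042), called in 12 of 27 alternative settings. Of those that left out 1 sample, it was called without replicate 2 of *klf9*-/- larvae in cortisol, replicate 1 or 4 of *klf9*-/- larvae in vehicle, replicate 1 of WT larvae in cortisol or replicate 1 of WT larvae in vehicle. The other *RXRA* gene (ENSDARG00000057737) was not called for cortisol. Its means with cortisol and vehicle were 146.25 and 158 in *klf9*-/- larvae and 154.5 and 153.75 in WT larvae. *rxrgb* was not called for genotype (-0.18 ± 0.06 averaged over treatments, limma adjusted p = 0.11).

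**Figure D5:**
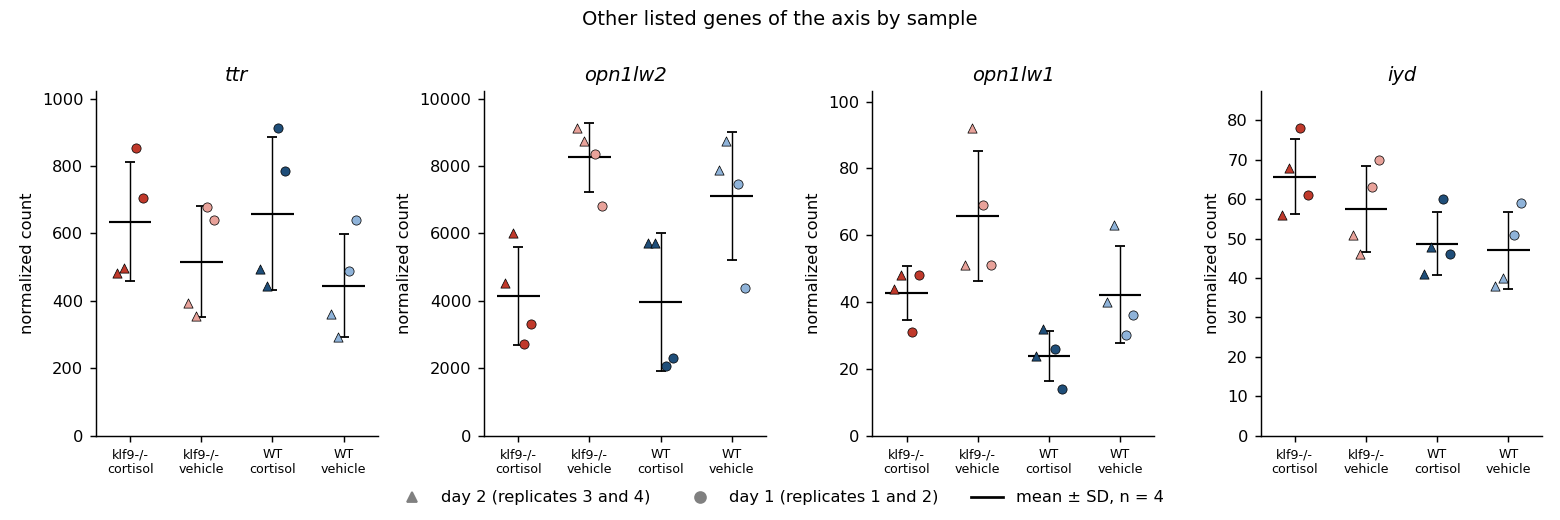
Normalized counts in each sample (vertical axis of each panel, starting at 0) of *ttr*, *opn1lw2*, *opn1lw1* and *iyd*, for *klf9*-/- larvae in cortisol, *klf9*-/- larvae in vehicle, WT larvae in cortisol and WT larvae in vehicle. Triangles are samples of day 2, circles samples of day 1, and bars the mean ± SD of 4 samples. The cortisol samples of *opn1lw2* lie between 2066 and 6003, and those of vehicle between 4380 and 9118.

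*iyd*, which encodes the deiodinase that recovers iodide from iodotyrosines, was the gene of hormone metabolism that differed by genotype. It had 78, 61, 56 and 68 normalized counts in *klf9*-/- larvae in cortisol and 63, 70, 51 and 46 in *klf9*-/- larvae in vehicle, against 60, 46, 41 and 48 in WT larvae in cortisol and 51, 59, 38 and 40 in WT larvae in vehicle. Averaged over treatments it was 0.36 ± 0.09 higher in *klf9*-/- larvae (limma adjusted p = 0.032), called in 15 of 27 alternative settings. The call was lost without replicate 1 or 4 of *klf9*-/- larvae in cortisol, 1, 2 or 3 of *klf9*-/- larvae in vehicle, 2 or 3 of WT larvae in cortisol, or 3 or 4 of WT larvae in vehicle, with adjusted p up to 0.072. *secisbp2*, a factor for the selenocysteine that deiodinases carry, was not called (cortisol in *klf9*-/- larvae -0.21 ± 0.10, adjusted p = 0.19).

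Red cone opsins are classical readouts of *thrb*. *opn1lw2* had 2735, 3304, 4538 and 6003 normalized counts in *klf9*-/- larvae in cortisol against 8350, 6814, 9118 and 8730 in *klf9*-/- larvae in vehicle, and 2066, 2310, 5729 and 5729 in WT larvae in cortisol against 7467, 4380, 7868 and 8730 in WT larvae in vehicle. The *klf9*-/- groups did not overlap. It fell with cortisol by 1.05 on the log2 scale in *klf9*-/- larvae (limma adjusted p = 0.032), by 0.96 in WT larvae (adjusted p = 0.015) and by 1.01 averaged (adjusted p = 8.9e-04). The sizes differed between days, with a fall by 0.53 on day 2 (adjusted p = 0.079 on that day alone) and by 1.39 on day 1 in WT larvae, and by 0.65 on day 2 and by 1.36 on day 1 averaged. The averaged call held whichever sample was left out and was lost without day in the model (adjusted p = 0.10), as were those within each genotype (adjusted p of 0.70 in *klf9*-/- and 0.39 in WT larvae). The WT call was lost without replicate 1 or 2 of WT larvae in cortisol (adjusted p up to 0.066), and the *klf9*-/- call without replicate 1 or 3 of *klf9*-/- larvae in cortisol or 1, 2 or 3 of *klf9*-/- larvae in vehicle (adjusted p up to 0.10).

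*opn1lw1* had 31, 48, 44 and 48 normalized counts in *klf9*-/- larvae in cortisol and 69, 51, 51 and 92 in *klf9*-/- larvae in vehicle, against 26, 14, 24 and 32 in WT larvae in cortisol and 30, 36, 40 and 63 in WT larvae in vehicle. It fell with cortisol by 0.71 on the log2 scale averaged over genotypes (limma adjusted p = 0.0076), and was 0.76 ± 0.17 higher in *klf9*-/- than in WT larvae averaged over treatments (adjusted p = 0.017). Both calls held in all 16 settings that left out 1 sample. Within WT larvae the cortisol difference of *opn1lw1* was -0.82 (limma adjusted p = 0.046) and was called in 5 of those 16 settings. Within *klf9*-/- larvae it was not called. The genotype difference of *opn1lw1* was called neither with vehicle alone nor with cortisol alone. For *opn1lw2* the *klf9*-/- difference was 0.21 ± 0.14 (adjusted p = 0.49), and *thrb* itself was called in neither comparison.

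The 2 opsin genes are tandem copies of similar sequence, so that the split of reads between them can be uncertain, which was not checked. With cortisol, other photoreceptor genes were lower too. Of 9 tested photoreceptor genes, 0 were higher and 8 lower with cortisol averaged over genotypes (median -0.75), 8 were higher and 1 lower on day 2, and 0 were called for genotype averaged over treatments. The shares of all tested genes called in these comparisons were 33.1% for cortisol, 63.1% for day and 4.67% for genotype. At that last share, 0 of 9 does not set the list apart from all genes. Their sums ranged over 17942 to 101006 in *klf9*-/- larvae in cortisol, 48491 to 105626 in *klf9*-/- larvae in vehicle, 15936 to 86028 in WT larvae in cortisol and 38904 to 98377 in WT larvae in vehicle. None was at 0 in any sample, and their part in the opsin differences was not tested.

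Apart from *tg* and the pituitary markers *pomca* and *gh1*, the listed genes of the follicle, the pituitary and the hypothalamus gave no call for treatment or genotype. Of 4 tested follicle genes beside *tg*, the transcription factors *pax8* (-0.19 ± 0.10), *foxe1* (0.26 ± 0.16) and *hhex* (-0.06 ± 0.30) had adjusted p of 0.15 to 0.89 in limma for cortisol averaged over genotypes. Of 6 tested pituitary and hypothalamic genes, the receptors of thyrotropin-releasing hormone named *TRHR* came nearest, with cortisol differences of -0.38 ± 0.14 (ENSDARG00000076546, adjusted p = 0.052) and -0.31 ± 0.18 (ENSDARG00000036159, adjusted p = 0.18). *crhb*, which encodes corticotropin-releasing hormone, differed by -0.02 ± 0.07 (adjusted p = 0.88). The number at an unadjusted p under 0.05 in limma for cortisol averaged over genotypes was 0 of 4 for the follicle and 1 of 6 for the pituitary and hypothalamus. Of all 21490 tested genes, 9787 passed that threshold in the same comparison. After adjustment, 33.1% of all tested genes were called there, and 4.67% for genotype averaged over treatments.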

How the data were processed

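The authors trimmed 75-nt single-end reads (Trimmomatic 0.38), aligned them to GRCz11 (STAR 2.6.1b) and counted them per gene (RSEM 1.3.0), and their own tests used DESeq2 1.24.0. They deposited log2 values of counts normalized by EDASeq for GC content and to one distribution in all samples, after 0.1 was added. On the count scale 100% of the values were whole within 0.01, and each sample summed to 14653434, so the depth is unknown and no count test was run. The design was therefore fitted to the log2 values with limma 3.58.1 (R 4.3.3), with a mean for each of the 4 groups and an additive term for preparation day, eBayes with a trend, over the 21490 genes averaging 5 or more normalized counts, and was tested on simulated data. Intervals are 95%. Exact permutation tests were two-sided. The members, gene lists, tests and alternatives were chosen with earlier results of these data known.

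Named genes were all members, every other listed gene of the axis called for treatment or genotype or among the 3 smallest unadjusted p of its list, *klf9*, and the 3 most similar genes of each member with a mean of at least 50. Of these, 2 genes are not reported here, and 1 of them is left out of the plot of listed genes. Symbols came from Ensembl and RefSeq names, which covered 21794 identifiers (1200 had none). *tshba* was matched through its synonym. Replicate numbers were checked for pairing over 24 pairs of samples. Deviations from group means correlated with a median r of 0.46, and deviations from the means of group and day with 0.0034, so that the numbers shared the day alone. The alternatives were other filters (a mean of at least 75, or none), 1 or 10 counts added, median centring, other models for the day, days or comparisons alone, eBayes without a trend, array weights and each sample left out. Figures were drawn with matplotlib 3.10.9.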

Additional observations from a re-analysis of the deposited data

Results flagged for a closer look

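In WT larvae in vehicle, *tshba* was at 0 normalized counts in 1 sample and at 2 in each of the other 3, which set that sample apart from its group. It was the only one of 32 groups of 4 values checked for the 8 genes. The check is set so that chance sets apart about 1 in 20 groups of continuous values. That rate does not hold for tied whole counts as low as these. The value lies at the edge of detection and touches no comparison.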

How the results depend on the processing

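The alternatives were 13 other settings and 16 that left out 1 sample. The number of members called for cortisol averaged over genotypes (2) was 0 without preparation day, 0 on day 2 alone and 0 on day 1 alone, where each fit had fewer samples. For cortisol in WT larvae it was 0 to 1 when 1 sample was left out. *dio1* and *tg* were called in 25 of 28 settings, including all 16 without 1 sample, and kept their sign in 28. *thraa* was called for cortisol in 1 of 28, without replicate 3 of *klf9*-/- larvae in vehicle. Without preparation day the other listed genes of the axis lost their calls too, apart from *klf9* for genotype. With a replicate block in place of day, members called stayed at 2 for cortisol averaged over genotypes and 0 in the other comparisons of treatment and genotype. Under the block 3 calls were lost, those of *RXRA* (adjusted p = 0.060), *slco1c1* (0.068) and *slc7a8b* for genotype (0.062).

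The number of all genes called, and so the background, moved more. Without 1 sample it lay between 340 and 3621 for cortisol in WT larvae (1860), 0 and 2850 in *klf9*-/- larvae (1043), 51 and 238 for genotype with vehicle (126), 249 and 544 with cortisol (444), 22 and 51 for the interaction (36), 5081 and 7861 for cortisol averaged (7107), and 637 and 1147 for genotype averaged (1004). It was 0 in *klf9*-/- larvae without cortisol replicate 1 or 3 or vehicle replicate 2 or 3. Other settings gave 97 to 6568, 0 to 4273, 14 to 495, 117 to 766, 0 to 53, 35 to 9168 and 221 to 1886 in the same order, and the causes were not tested. Depth is unknown, and *tshba*, *slc5a5* and *dio2* were too low to show moderate differences.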
